A study of Mus musculus with 4 samples.

Results

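The 8 genes described here mark naive and memory T cells and were measured in the RNA-Seq libraries of lung tumor-infiltrating CD4+ T cells: the transcription factors *Tcf7*, *Lef1*, *Bach2*, *Satb1*, *Foxp1* and *Klf2*, the sphingosine-1-phosphate receptor *S1pr1* and the adhesion receptor *Cd44*. They were chosen by name, 8 of the 25239 gene symbols counted, and all 8 passed the filter on low counts, with 13919 genes tested in all. Each gene is given on 2 scales, its share of a library's counts and its count relative to the T cell receptor genes *Cd3e*, *Cd3d* and *Cd3g*.

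The 4 libraries comprised 2 labelled WT and 2 labelled CD4/ALK4-KO. All mice were C57BL/6 males of 8 to 10 weeks that received 500000 LLC-OVA cells by the intravenous route, that is, Lewis lung carcinoma cells expressing ovalbumin. CD4/ALK4-KO mice (CD4CreERT2+/-/Acvr1bfl/fl) carry floxed alleles of *Acvr1b*, the gene of the activin receptor ALK4, and a Cre recombinase that tamoxifen activates and the *Cd4* promoter drives. They were given 5 daily doses of 75 mg/kg of tamoxifen, with the tumor cells on day 5, and deletion is thus limited to cells in which the *Cd4* promoter was active, and to their descendants. WT mice were littermates, and the sources used here do not state whether they received tamoxifen, whether they carried Cre, or whether animals were pooled. The methods give euthanasia on days 16 to 20, and the labels give days 18 to 22. CD4+ cells were purified with a kit from the leukocyte layer of a density gradient.

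Total counts were 13869889 and 13943237 in the WT libraries and 11959487 and 11823908 in the CD4/ALK4-KO libraries. The targeted gene *Acvr1b* had 426 and 342 counts in WT and 322 and 445 in CD4/ALK4-KO. As a share of the library it did not separate the groups (log2 fold change 0.16, SE 0.24, adjusted p = 0.66). Relative to Cd3 it was at 0.801 and 0.725 in WT and at 0.137 and 0.202 in CD4/ALK4-KO. That log2 fold change of -2.17 (SE 0.30, adjusted p = 6.6e-13) was close to the median of all genes tested on this scale, -2.36. The count of *Acvr1b* also covers any exons outside the floxed part, and deletion in T cells was not tested. Directions below therefore refer to the libraries as labelled. T cell transcripts were far from the same share in the groups: the 15 T cell identity genes summed to 518 and 486 CPM (counts scaled to a common library size) in WT and to 2770 and 2582 CPM in CD4/ALK4-KO. Against the label of purified CD4+ T cells, 10 macrophage markers summed to more than this in every library, from 5790 to 7140 CPM. Most of that sum was *Lyz2*, at 4278 and 5687 CPM in WT and 4758 and 4227 CPM in CD4/ALK4-KO. Without *Lyz2*, the sum of the markers was above that of the T cell genes in WT but below it in CD4/ALK4-KO. None of these macrophage markers was at 0 in any library. In bulk RNA, fewer T cells and less RNA per T cell cannot be told apart.

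A naive T cell circulates through blood and lymph nodes in a quiescent state that a small set of transcription factors upholds. TCF1 and LEF1, encoded by *Tcf7* and *Lef1*, are DNA-binding partners of β-catenin that keep T cells able to self-renew, and BACH2 restrains effector programs. SATB1 organizes chromatin, FOXP1 sustains quiescence, and KLF2 turns on *S1pr1*, the receptor with which T cells leave lymphoid organs. CD44, a receptor for hyaluronan, is low on naive T cells and high on activated and memory T cells, and it is abundant on myeloid cells and fibroblasts as well. Several of the others are likewise not limited to CD4+ T cells, since CD8+ T cells, NK cells, B cells and endothelium use some of them.

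The stretches upstream of 4 of the genes are shown. *Lef1* and *Bach2* were taken because they rose side by side on the share scale, where *Tcf7* and *Satb1* rose as well. *Klf2* and *Cd44* were taken because neither passed the test there. All 4 were chosen after the matches described here were seen. Each is read 5′ to 3′ along the gene, from RefSeq on GRCm38.p6, as the 250 bases before an annotated start without exonic bases, which left 221 for *Klf2*. Capitals mark matches on either strand to the TCF/LEF letters CTTTGA or CTTTGT in *Lef1* and *Bach2* and to the KLF letters CCACCC or GGGCGGGG in *Klf2*.
*Lef1*, chr3:131156044-131156293, plus strand: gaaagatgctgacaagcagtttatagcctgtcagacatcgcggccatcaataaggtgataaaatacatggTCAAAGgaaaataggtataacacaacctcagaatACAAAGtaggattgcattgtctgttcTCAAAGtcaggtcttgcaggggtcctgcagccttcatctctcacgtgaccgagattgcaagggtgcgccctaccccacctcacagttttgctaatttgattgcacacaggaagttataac
*Bach2*, chr4:32417185-32417434, plus strand: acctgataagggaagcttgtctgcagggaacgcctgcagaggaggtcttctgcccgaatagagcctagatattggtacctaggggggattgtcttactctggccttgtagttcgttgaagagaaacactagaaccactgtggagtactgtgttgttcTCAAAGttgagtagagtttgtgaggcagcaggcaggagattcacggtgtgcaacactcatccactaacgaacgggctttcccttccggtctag
*Klf2*, chr8:72318812-72319032, plus strand: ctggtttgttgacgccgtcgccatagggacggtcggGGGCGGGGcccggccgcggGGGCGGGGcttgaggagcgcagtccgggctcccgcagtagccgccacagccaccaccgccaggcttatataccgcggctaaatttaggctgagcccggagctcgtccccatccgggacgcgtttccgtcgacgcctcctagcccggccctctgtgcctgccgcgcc
*Cd44*, chr2:102901666-102901915, minus strand: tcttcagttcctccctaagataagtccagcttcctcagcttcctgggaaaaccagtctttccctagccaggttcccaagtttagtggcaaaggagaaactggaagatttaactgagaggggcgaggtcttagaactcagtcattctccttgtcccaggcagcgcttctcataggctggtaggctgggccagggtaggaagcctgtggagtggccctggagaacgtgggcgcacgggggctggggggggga
The *Lef1* stretch, which lies before a start inside the gene, held 3 TCF/LEF matches, and the *Bach2* stretch, also inside the span of its gene, held 1. A window before another start of *Lef1*, from 131112541 to 131112790, held no TCF/LEF match and 3 KLF matches. Of the genes not shown, the windows of *Tcf7* (250 and 116 bases) held no TCF/LEF match and 1 KLF match each. The window of *Satb1* (146 bases) held no TCF/LEF match and 3 KLF matches. Windows of *Foxp1* (81, 233 and 235 bases) held 1, 2 and 0 TCF/LEF matches and 1, 0 and 0 KLF matches. A link between matches and changes in level was not tested. Among 32851 windows of 250 bases before starts in the genome, 27.6% held at least 1 TCF/LEF match. Exonic bases were not removed from these windows, unlike from the stretches of the genes described. *Klf2* held 2 KLF matches, where 33.6% of windows cut to its length held any, and *Cd44* held no match to either set of letters. The AP-1-like letters of BACH factors (TGACTCA or TGAGTCA, in 4.46% of windows) and the forkhead letters GTAAACA (in 3.17%) were absent from every window of the 7 genes found in this table. A match is a run of letters and was not tested as a binding site. *S1pr1* was not among the 7.

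By GENCODE M21 on GRCm38, *Tcf7* lies on the minus strand of chromosome 11, from 52252371 to 52283014, and *Lef1* on the plus strand of chromosome 3, from 131110471 to 131224356. *Bach2* spans chromosome 4 from 32238804 to 32586108 on the plus strand, and the antisense gene *Bach2os* overlaps its exons. The kit does not mark strand, so reads of *Bach2* and *Bach2os* within the overlap cannot be told apart. *Bach2os* went the opposite way from *Bach2*, with a log2 fold change of -1.89 (SE 0.66, adjusted p = 0.032). *Satb1* lies on chromosome 17 from 51736187 to 51833290 and *Foxp1* on chromosome 6 from 98925338 to 99522721, both on the minus strand. *Klf2* occupies chromosome 8 from 72319033 to 72321656 on the plus strand. The minus strand holds *S1pr1* on chromosome 3 from 115710433 to 115715072 and *Cd44* on chromosome 2 from 102811141 to 102901665.

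As a share of the library, 6 of the 8 genes were higher in CD4/ALK4-KO than in WT, and all 8 estimates were above 0. The 4 genes with the greatest rise were *Satb1*, *Bach2*, *Lef1* and *Tcf7*, followed by *S1pr1* and *Foxp1*, whereas *Klf2* and *Cd44* did not pass the test. These values are CPM scaled by TMM, a factor for each library that rests on the assumption that most genes do not differ, and log2 fold changes come from edgeR's quasi-likelihood test with Benjamini-Hochberg adjustment over all genes tested. Of all genes tested, 17.4% were called higher at an adjusted p under 0.05 and 15.4% lower. The median log2 fold change was 2.15 over the 8 genes and -0.0082 over all genes tested. CPM of the 2 groups did not overlap for 6 of the 8 genes, and for 66.7% of all genes tested. With 2 libraries a group, an exact permutation test of a single gene cannot give a two-sided p below 0.333, so that p-values rest on the fit across all genes. No source states that replicates came from separate animals, and the p-values then measure only the spread between these libraries, which may be technical.

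*Tcf7* had 30.6 and 29.9 CPM in WT and 156 and 162 CPM in CD4/ALK4-KO. Both CD4/ALK4-KO libraries were well above both WT libraries, and replicates within a group were nearly equal. The means were 30.3 ± 0.501 and 159 ± 4.69 CPM (SD, n = 2), and the log2 fold change was 2.39 (SE 0.22, 95% interval 1.94 to 2.85, adjusted p = 5.7e-08).

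*Lef1* had 10.5 and 10.8 CPM in WT and 79.8 and 61.3 CPM in CD4/ALK4-KO. The WT libraries sat together far below the other 2, of which replicate 1 was 1.30 times replicate 2. The log2 fold change was 2.73 (SE 0.24, 95% interval 2.22 to 3.23, adjusted p = 3.9e-08). For *Bach2*, the least abundant of the 8, the counts were 45 and 52 in WT and 279 and 341 in CD4/ALK4-KO, or 3.28, 3.84, 23.4 and 27.6 CPM. The groups were far apart although WT counts were few. Its log2 fold change was 2.84 with a wider SE of 0.30 (95% interval 2.21 to 3.47, adjusted p = 3.5e-07).

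*Satb1* had 24.3 and 36.1 CPM in WT and 291 and 193 CPM in CD4/ALK4-KO, the greatest change of the 8. Its replicates also differed most within CD4/ALK4-KO, where replicate 1 was 1.51 times replicate 2, but the lowest of these libraries was still far above the highest WT library. The means were 30.2 ± 8.33 and 242 ± 69.1 CPM (SD, n = 2), and the log2 fold change was 3.004 (SE 0.26, 95% interval 2.47 to 3.54, adjusted p = 2.8e-08). *Foxp1* was at 42.7 and 47.7 CPM in WT and at 122 and 136 CPM in CD4/ALK4-KO. It was higher in both CD4/ALK4-KO libraries with the smallest rise of the 6 genes called, a log2 fold change of 1.52 (SE 0.22, 95% interval 1.07 to 1.96, adjusted p = 1.3e-05).

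On this scale *S1pr1* was called higher and *Klf2* was not. *S1pr1* had 44.9 and 49.97 CPM in WT and 165 and 191 CPM in CD4/ALK4-KO. Both CD4/ALK4-KO libraries lay above WT, with a log2 fold change of 1.91 (SE 0.22, 95% interval 1.46 to 2.36, adjusted p = 7.7e-07). *Klf2* had 88.6 and 59.3 CPM in WT and 67.2 and 90.6 CPM in CD4/ALK4-KO. The groups overlapped, each holding a high and a low library. *Klf2* had a log2 fold change of 0.094 (SE 0.24, 95% interval -0.39 to 0.58, adjusted p = 0.80). The log2 ratio of *Klf2* to *S1pr1* counts, which depends on neither scaling, was 0.98 and 0.25 in WT and -1.30 and -1.08 in CD4/ALK4-KO, with no overlap and a shift of -1.80 between the group means. This ratio takes in the RNA of every cell type in a library, and the part of other cells in it was not tested.

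*Cd44* was the most abundant of the 8, at 557 and 650 CPM in WT and 673 and 632 CPM in CD4/ALK4-KO. The groups overlapped in part, with WT replicate 1 the lowest and CD4/ALK4-KO replicate 1 the highest library. The means were 604 ± 65.9 and 652 ± 28.6 CPM (SD, n = 2), and the log2 fold change was 0.11 (SE 0.21, 95% interval -0.32 to 0.54, adjusted p = 0.72).

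**Figure D1:**
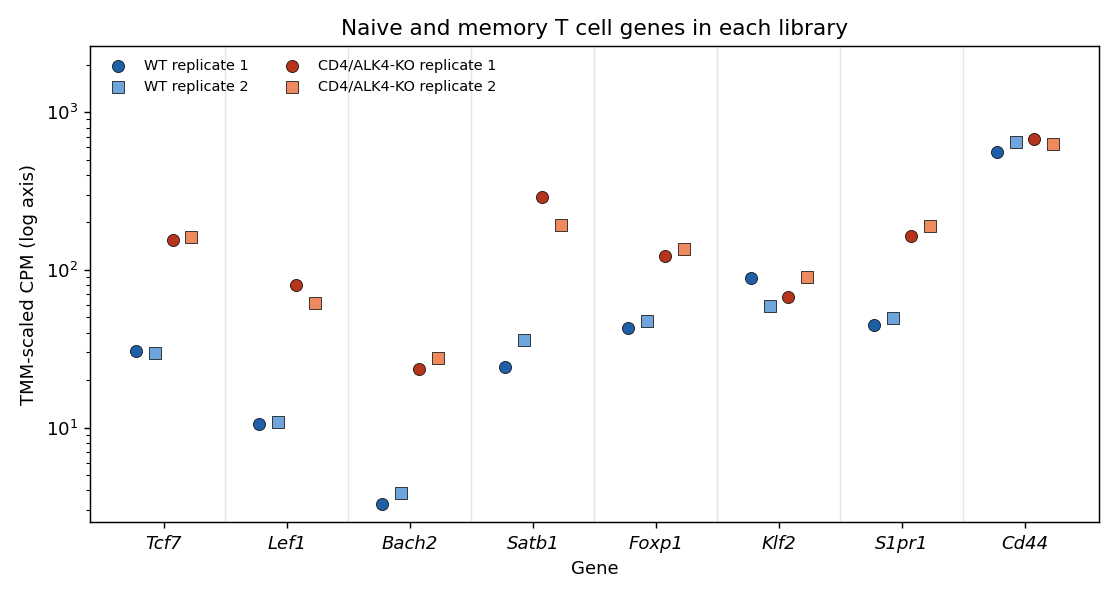
TMM-scaled CPM of each gene on a log axis, with 1 point per library (circles, replicate 1; squares, replicate 2; blue, WT; red, CD4/ALK4-KO). For 6 genes both red points stand above both blue points, while the points of *Klf2* (59.3 to 90.6 CPM) and *Cd44* (557 to 673 CPM) overlap.

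Levels can be compared between genes only per length of transcript. Per kilobase of exons, *Cd44* led the WT libraries with a mean of 89.1 CPM per kb, followed by *Klf2* with 40.0, *S1pr1* with 15.6 and *Tcf7* with 11.5. *Foxp1* (3.29 CPM per kb), *Satb1* (1.59), *Lef1* (1.21) and *Bach2* (0.359) came after. No neighbours in this order overlapped between their 2 WT libraries. In CD4/ALK4-KO the order of mean levels was *Cd44* (96.3 CPM per kb), *Tcf7* (60.6), *S1pr1* (58.5), *Klf2* (42.7), *Satb1* (12.7), *Foxp1* (9.40), *Lef1* (8.03) and *Bach2* (2.57). *Tcf7* and *S1pr1* did not differ beyond their spread in this order, at 59.3 to 61.9 and 54.3 to 62.8 CPM per kb, nor did *Foxp1* and *Lef1*, at 8.88 to 9.92 and 6.98 to 9.08 CPM per kb. *Klf2* thus stood above *S1pr1* and *Tcf7* in WT and below both in CD4/ALK4-KO.

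The genes of the T cell receptor complex rose over a similar range. The log2 fold change on the TMM scale was 2.92 for *Cd3e*, 1.97 for *Cd3d* and 2.16 for *Cd3g*, a mean of 2.35 (SE 0.13), and it was 2.62 for *Cd4*. The geometric mean of the 3 Cd3 genes was 38.8 and 34.9 CPM in WT and 197 and 178 CPM in CD4/ALK4-KO. Dividing by it shifted the median of all genes by -2.35, and on this second scale 0.208% of all genes tested were called higher in CD4/ALK4-KO and 93.2% lower. Of the 8 genes, 1 was called higher and 3 lower, with a median log2 fold change of -0.20 against -2.36 over all genes tested. Ratios of the 2 groups did not overlap for 7 of the 8 genes and for 96.4% of all genes tested.

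Relative to Cd3, *Tcf7* lay at 0.790 and 0.859 in WT and at 0.789 and 0.911 in CD4/ALK4-KO. The groups overlapped, and the log2 fold change was 0.045 (SE 0.26, 95% interval -0.46 to 0.55, adjusted p = 0.87). Its sign depended on the Cd3 gene, with -0.55 against *Cd3e* alone. *Lef1* had ratios of 0.271 and 0.310 in WT and 0.405 and 0.344 in CD4/ALK4-KO, and *Bach2* had 0.0846 and 0.110 in WT and 0.119 and 0.155 in CD4/ALK4-KO. Both were slightly higher in CD4/ALK4-KO without overlap between the groups, but neither passed the test, with log2 fold changes of 0.37 (SE 0.31, adjusted p = 0.24) for *Lef1* and 0.49 (SE 0.37, adjusted p = 0.20) for *Bach2*. Against *Cd3d* alone both were called higher, at 0.75 (adjusted p = 0.010) and 0.87 (adjusted p = 0.017), and against *Cd3e* alone both signs turned, at -0.21 and -0.12.

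*Satb1* was the gene called higher per Cd3, with ratios of 0.626 and 1.03 in WT and 1.48 and 1.09 in CD4/ALK4-KO. The nearest libraries of the groups were close, and the log2 fold change was 0.63 (SE 0.25, adjusted p = 0.015). This call was lost without WT replicate 1 (0.31, adjusted p = 0.35), without CD4/ALK4-KO replicate 1 (0.39, adjusted p = 0.16) and against *Cd3e* alone (0.034, adjusted p = 0.91).

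*Foxp1* had ratios of 1.10 and 1.37 in WT and 0.619 and 0.765 in CD4/ALK4-KO. It was lower per Cd3 in both CD4/ALK4-KO libraries, with a log2 fold change of -0.83 (SE 0.26, adjusted p = 0.0013), although it rose as a share of the library. Against *Cd3g* alone the change of *Foxp1* was -0.60 (adjusted p = 0.093). *S1pr1* had ratios of 1.16 and 1.43 in WT and 0.838 and 1.07 in CD4/ALK4-KO, with a log2 fold change of -0.44 (SE 0.25, adjusted p = 0.086). That difference passed the test against *Cd3e* alone (-1.05, adjusted p = 0.0013) and without CD4/ALK4-KO replicate 2 (-0.63, adjusted p = 0.032).

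*Klf2* and *Cd44* fell furthest per Cd3. *Klf2* had ratios of 2.28 and 1.70 in WT and 0.341 and 0.509 in CD4/ALK4-KO, a mean 4.69 times higher in WT. For *Cd44* they were 14.3 and 18.7 in WT and 3.41 and 3.55 in CD4/ALK4-KO, a mean 4.74 times higher in WT. Both differences were far wider than the spread between replicates, with log2 fold changes of -2.23 (SE 0.26, adjusted p = 4.0e-17) for *Klf2* and -2.25 (SE 0.25, adjusted p = 4.9e-19) for *Cd44*. They were close to the median of all genes on this scale. The fit takes the Cd3 counts as known, and intervals that add the error of the 3 Cd3 genes gave the same 4 calls, from 0.049 to 1.26 for *Satb1*, -1.36 to -0.31 for *Foxp1*, -2.82 to -1.70 for *Klf2* and -2.75 to -1.73 for *Cd44*.

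**Figure D2:**
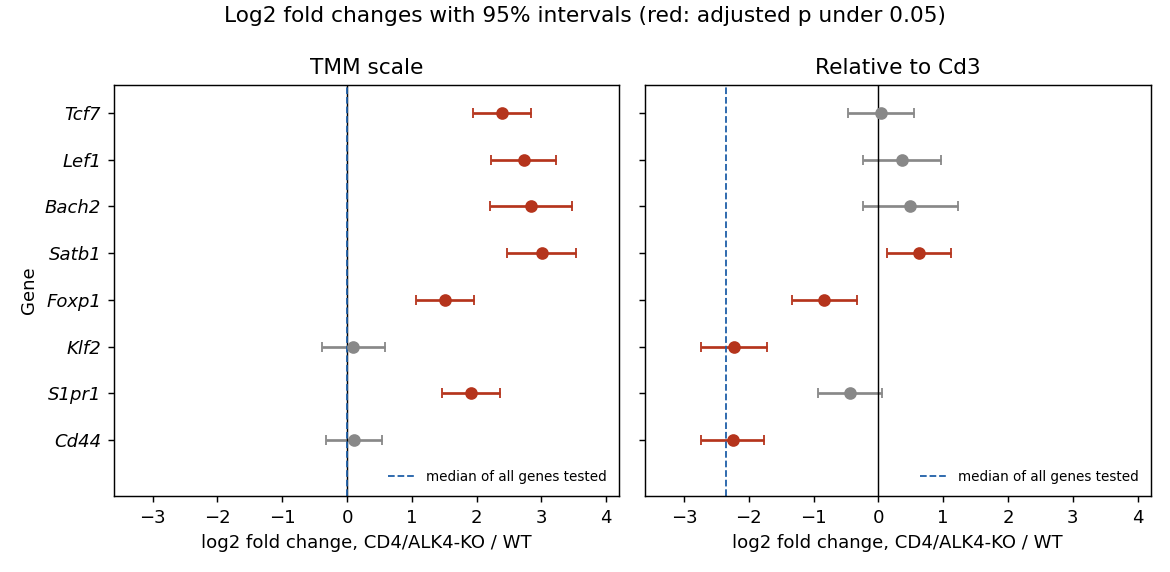
Log2 fold change of CD4/ALK4-KO over WT for each gene, with 95% intervals, on the TMM scale (left) and relative to Cd3 (right); red marks an adjusted p under 0.05, grey a higher one, and the dashed line the median of all genes tested. *Klf2* and *Cd44* lie at the dashed line in both panels, while the other 6 genes lie to its right.

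**Figure D3:**
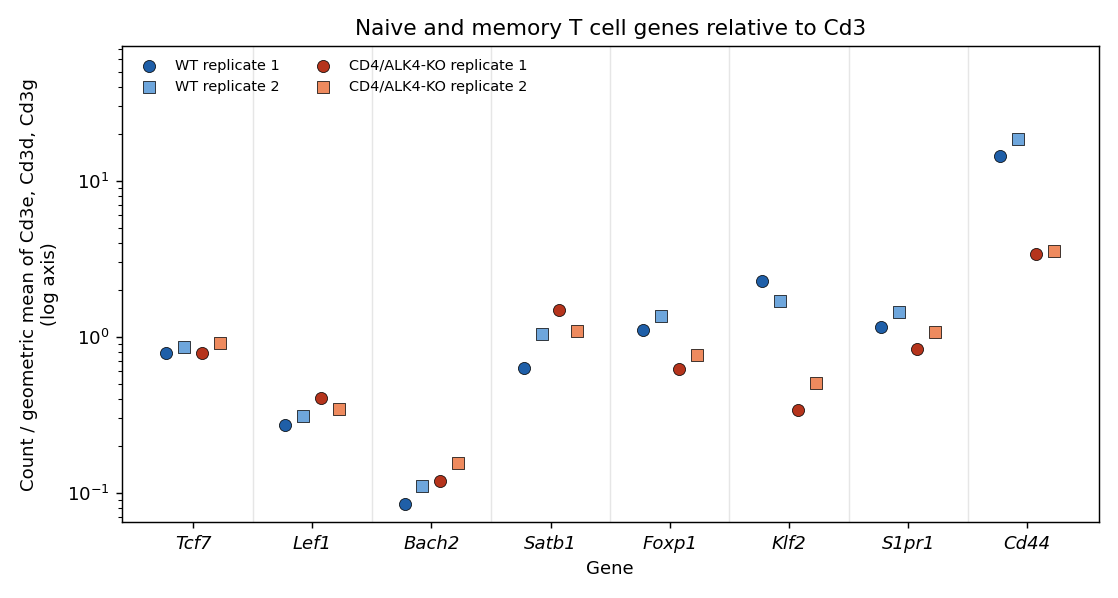
Count of each gene divided by the geometric mean of the counts of *Cd3e*, *Cd3d* and *Cd3g*, on a log axis, with 1 point per library. *Tcf7* stays between 0.789 and 0.911 in all 4 libraries, and *Klf2* and *Cd44* are lower in both CD4/ALK4-KO libraries.

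Ratios of 1 gene to another need no scaling at all. The log2 ratio shifted by -0.12 for *Lef1* to *Bach2*, by -0.29 for *Lef1* to *Satb1* and by -0.16 for *Bach2* to *Satb1*. The groups overlapped each time, but replicates differed by more than these shifts. They differed by up to 0.62 for *Lef1* to *Bach2*, 0.53 for *Lef1* to *Satb1* and 0.83 for *Bach2* to *Satb1*. The log2 ratio of *Tcf7* to *Lef1* was 1.54 and 1.47 in WT and 0.96 and 1.41 in CD4/ALK4-KO, narrowly apart. That of *Tcf7* to *Bach2* was 3.22 and 2.96 in WT and 2.73 and 2.56 in CD4/ALK4-KO, a shift of -0.45 with no overlap, and that of *Tcf7* to *Satb1* shifted by -0.61 with overlap. The log2 ratio of *Foxp1* to *S1pr1* was -0.074 and -0.068 in WT and -0.44 and -0.49 in CD4/ALK4-KO. This shift of -0.39 came with no overlap, and replicates differed by only 0.0068 in WT and 0.051 in CD4/ALK4-KO. *Klf2* and *Cd44* shifted by -0.0088 against each other, with overlap. Between these 4 genes and the other 4, the widest shift was 2.90 for *Satb1* to *Klf2* and the narrowest was 0.48 for *Tcf7* to *S1pr1*, both without overlap.

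**Figure D4:**
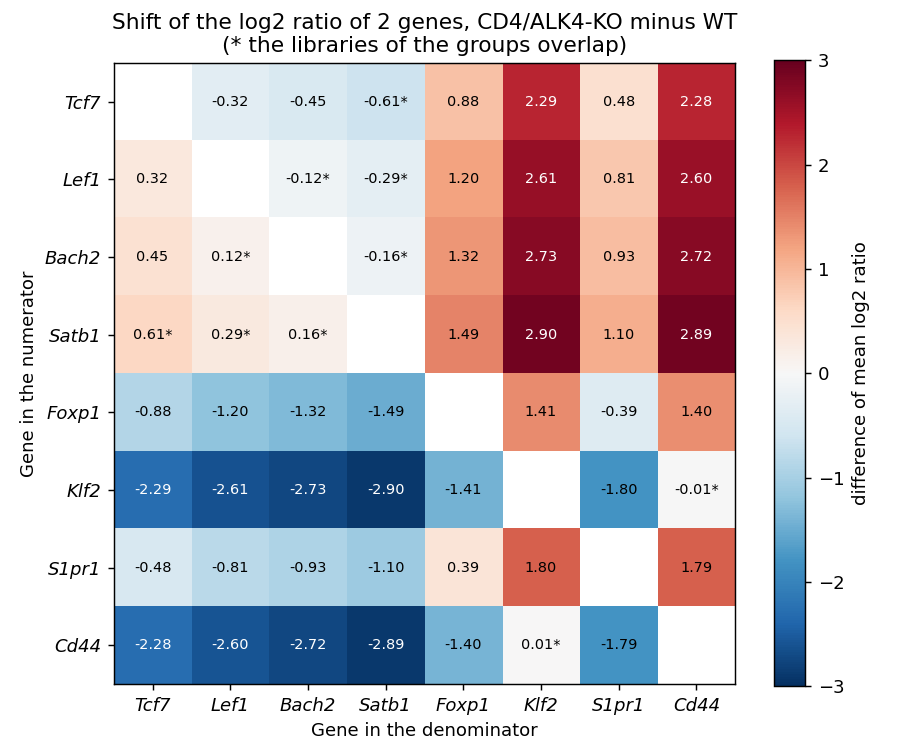
Shift of the log2 ratio of each pair of genes between the group means, CD4/ALK4-KO minus WT, with the numerator in rows and the denominator in columns; a star marks pairs whose libraries overlap between groups. The rows of *Klf2* and *Cd44* are blue against the other 6 genes and near 0 against each other.

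Likeness of pattern was measured as the root mean square difference of centred log2 CPM over the 4 libraries, among genes whose mean reached 10 CPM. The 9773 of these genes outside the gene lists were compared with each of the 8 genes. The measure is a description over 4 libraries in 2 groups, in which many genes are alike. Of the 8 genes, *Tcf7* and *Bach2* were nearest to each other at 0.18, *Foxp1* and *S1pr1* at 0.20, and *Klf2* and *Cd44* at 0.34. Outside the gene lists, *Rasal3* (0.059) and *Dgka* (0.066) were most like *Tcf7*, *Apol7e* (0.024) and *Tespa1* (0.078) most like *Lef1*, and *Nlrc3* (0.075) and *Grap2* (0.084) most like *Bach2*. *St8sia6* (0.099) and *Camk4* (0.14) were most like *Satb1*, whose pattern had only 5 genes within 0.2. *Nxpe3* (0.033) and *Herc2* (0.036) were nearest to *Foxp1*, and *Utrn* (0.041) and *Foxn3* (0.049) to *S1pr1*. By contrast, 852 genes lay within 0.2 of *Klf2*, led by *H2-D1* (0.032) and *Pigq* (0.038), and 2255 within 0.2 of *Cd44*, led by *Scarb2* (0.012) and *Eif5b* (0.014).

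Most of the other genes of naive and memory T cells rose on the TMM scale too. Of 20 such genes, 15 were called higher and 1 lower, with a median log2 fold change of 1.67. On the Cd3 scale 11 were called lower and the rest not called, with a median of -0.71. Of all genes tested, 93.2% were called lower on the Cd3 scale, with a median of -2.36. *Ets1*, a transcription factor of resting lymphocytes, had 2241 and 2383 counts in WT and 9253 and 9670 in CD4/ALK4-KO (log2 fold change on the TMM scale 2.20, SE 0.22, adjusted p = 1.4e-07). *Cd27*, a costimulatory receptor, rose most, by 2.75 (SE 0.24, adjusted p = 2.8e-08). *Ccr7*, the lymph node homing chemokine receptor, rose by 2.12 (SE 0.23, adjusted p = 3.1e-07) and was named after its value was seen. *Igfbp4*, a binding protein of insulin-like growth factors, was the only gene of the list called lower, with 8336 and 7190 counts in WT and 3267 and 3728 in CD4/ALK4-KO (-0.98, SE 0.22, adjusted p = 0.0013), a call that was absent without WT replicate 1. *Igfbp4* alone was above the summed 15 T cell identity genes in WT, at 608 and 532 against 518 and 486 CPM, but not in CD4/ALK4-KO. Which cells its counts came from was not tested. The 4 genes that did not pass were *Id3* (-0.29), *Klf7* (0.82), *Zeb1* (0.015) and *Actn1* (-0.26).

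Activation and effector genes moved in the same direction. Of 16, 14 were called higher and 1 lower, with a median log2 fold change of 1.54 on the TMM scale. On the Cd3 scale 11 were called lower and the rest not called, with a median of -0.81, beside 93.2% and -2.36 over all genes tested. *Il2ra*, the high-affinity subunit of the interleukin receptor of activated and regulatory T cells, rose most, from 113 and 101 counts in WT to 728 and 773 in CD4/ALK4-KO (2.98, SE 0.25, adjusted p = 2.5e-08). *Id2* rose by 0.71 (SE 0.22, adjusted p = 0.016), and *Zeb2*, at 0.26 (SE 0.23, adjusted p = 0.41), did not pass. *S100a4*, a calcium-binding protein, was the gene called lower, with 24559 and 23174 counts in WT and 3843 and 6780 in CD4/ALK4-KO (-2.01, SE 0.24, adjusted p = 1.3e-06). In WT, *S100a4* alone was above the summed 15 T cell identity genes, at 1792 and 1713 against 518 and 486 CPM, but not in CD4/ALK4-KO. Which cells its counts came from was not tested. The medians of the naive and the activation list thus had the same sign on both scales, and the difference between the lists was not tested.

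Relatives and partners of the 8 genes were called in both directions on the TMM scale, where 17.4% of all genes tested were higher and 15.4% lower, and several of these lists lay near those shares. On the Cd3 scale, where 93.2% of all genes were called lower, nearly all of them were lower too: 9 of 9 TCF/LEF relatives, 12 of 12 KLF genes, 10 of 12 sphingosine-1-phosphate genes, 6 of 7 relatives of BACH2, SATB1 and FOXP1 and 12 of 12 CD44 partners. Of 9 TCF/LEF relatives and cofactors, 3 were higher and 3 lower, with a median log2 fold change of -0.55. *Ctnnb1*, the gene of β-catenin, was lower by -0.55 (SE 0.21, adjusted p = 0.042), and the corepressor gene *Tle1* by -1.08 (SE 0.26, adjusted p = 0.0033), while its relatives *Tle4* (1.25, adjusted p = 9.4e-04) and *Tle3* (0.77, adjusted p = 0.020) were higher. *Axin2*, a target of β-catenin, was higher by 1.17 (adjusted p = 0.019), and *Tcf7l1* was lower by -1.34 (adjusted p = 0.012). The other KLF genes, of which 12 of 16 could be tested, had 3 higher and 1 lower, with a median of 0.40. That count takes in *Klf3* and *Klf7*, which also stand in the list of naive and memory genes; without them 2 of 10 were higher and 1 was lower, with a median of 0.14. *Klf6*, the most abundant, had 8120 and 8326 counts in WT and 7803 and 8054 in CD4/ALK4-KO. Its log2 fold change of 0.11 (SE 0.21, adjusted p = 0.71) was close to that of *Klf2*. *Klf8* (1.28, adjusted p = 0.012) and *Klf13* (0.92, adjusted p = 0.010) were higher, as was *Klf3* (0.93, adjusted p = 0.0034), and *Klf16* (-0.79, adjusted p = 0.041) was lower.

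Of 12 genes of sphingosine-1-phosphate sensing and metabolism, 3 were called higher and 1 lower on the TMM scale, with a median log2 fold change of 0.22. Among the receptors, *S1pr4*, which is typical of lymphocytes, had 148 and 174 counts in WT and 434 and 521 in CD4/ALK4-KO (1.73, SE 0.26, adjusted p = 2.0e-05), close to *S1pr1*. *S1pr3* was higher by 0.90 (SE 0.31, adjusted p = 0.030), and *S1pr2* was at -0.40 (SE 0.26, adjusted p = 0.25). The kinase gene *Sphk1*, whose enzyme makes the ligand, was lower by -1.44 (SE 0.47, adjusted p = 0.021), and the lyase gene *Sgpl1*, whose enzyme destroys it, was at -0.19 (SE 0.22, adjusted p = 0.54).

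Among relatives and partners of BACH2, SATB1 and FOXP1, 7 of 8 could be tested, with 2 higher and 2 lower and a median log2 fold change of -0.074 on the TMM scale. *Foxp3*, the factor of regulatory T cells, had 67 and 28 counts in WT and 201 and 347 in CD4/ALK4-KO (2.69, SE 0.37, adjusted p = 1.3e-05). *Bach1* was higher by 0.71 (SE 0.22, adjusted p = 0.015), and *Maff* was lower by -0.82 (SE 0.29, adjusted p = 0.031). Of 12 genes of CD44 ligands, hyaluronan and the proteins that tie CD44 to actin, 1 was higher and 4 were lower. *Spp1*, which encodes the CD44 ligand osteopontin, was lower by -1.46 (SE 0.20, adjusted p = 9.6e-06), the hyaluronan synthase gene *Has2* by -1.40 (SE 0.29, adjusted p = 7.5e-04), *Hyal2* by -1.14 (SE 0.29, adjusted p = 0.0042) and *Hmmr* by -1.03 (SE 0.23, adjusted p = 0.0015). The actin linker gene *Msn* was higher by 0.66 (SE 0.21, adjusted p = 0.017).

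Markers of lymphocytes differed between the groups, while most markers of macrophages, endothelium and neutrophils were not called on the TMM scale. All 15 T cell identity genes were higher on the TMM scale with a median log2 fold change of 2.41, and so were all 10 B cell markers (median 2.55, summed level 72.3 and 84.4 CPM in WT and 259 and 508 CPM in CD4/ALK4-KO) and all 8 CD8 and NK markers (median 2.21, 113 and 132 CPM in WT and 465 and 589 CPM in CD4/ALK4-KO). None of the B cell, CD8 or NK markers was at 0 in a library. These cells also express *Tcf7*, *Lef1*, *Bach2*, *Satb1*, *Foxp1*, *Klf2* or *S1pr1* in part, and their share in the rise of these genes was not tested. Endothelial markers, of cells that express *Klf2* and *S1pr1*, had 1 of 10 higher and 1 lower (66.0 and 82.9 CPM in WT, 132 and 148 CPM in CD4/ALK4-KO), and the 1 higher was *Pecam1*, which lymphocytes and myeloid cells also express. Without *Pecam1*, the other 9 summed to 43.4 and 40.2 CPM in WT and 25.5 and 39.7 CPM in CD4/ALK4-KO, and their median log2 fold change was -0.67. Beside *Cd44*, 1 of 10 macrophage markers, *Csf1r*, was higher and the rest were not called (6269 and 7140 CPM in WT, 5790 and 6074 CPM in CD4/ALK4-KO), and 4 of 8 fibroblast markers were lower and the rest not called (6761 and 7356 CPM in WT, 4013 and 4820 CPM in CD4/ALK4-KO). Of 8 neutrophil markers, 2 were higher and the rest not called (934 to 1518 CPM over all libraries). Of 7 epithelial markers tested, 2 were higher and 4 lower, and all 8 listed summed to 865 and 869 CPM in WT and 420 and 565 CPM in CD4/ALK4-KO. Of the 2 erythroid markers tested, neither was called. All 6 listed summed to 1201 to 4607 CPM over all libraries, and *Hbb-bt* was at 0 in every library. The part of these cells in the levels of *Cd44* and *Klf2* was not tested.

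**Figure D5:**
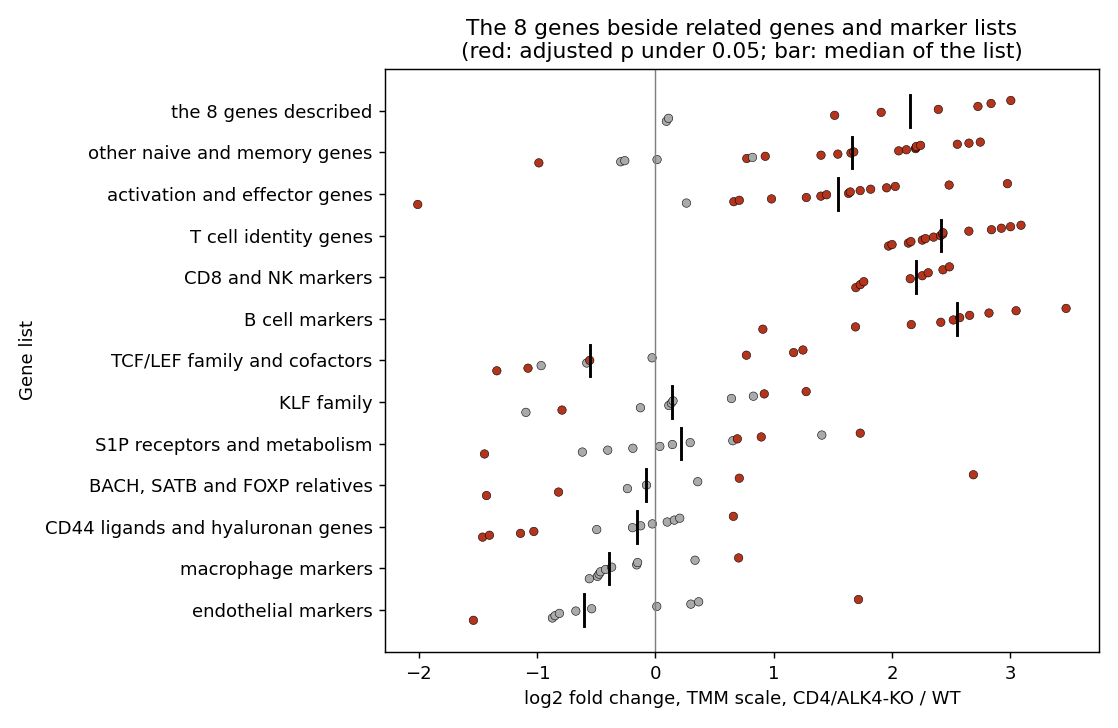
Log2 fold change of CD4/ALK4-KO over WT on the TMM scale for each gene tested of 13 lists (points; red, adjusted p under 0.05; grey, higher), with the median of each list as a bar and the KLF list without *Klf3* and *Klf7*. The medians of the T cell, B cell, CD8 and NK lists lie between 2.21 and 2.55, near that of the 8 genes (2.15), while the lists of relatives and of macrophage and endothelial markers lie around or below 0.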

How the data were processed

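RNA-Seq was performed on CD4+ T cells from lung tumors of 2 WT and 2 CD4/ALK4-KO samples, grouped by the sample labels. Single-end reads of 75 bp were aligned by the authors to mm10 (HISAT2), and the raw counts per gene symbol that they deposited came from htseq-count in intersection-nonempty mode. The annotation, the strand option and the versions are not given in the sources used here, and reads counted on no gene were not used here.

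From the counts, edgeR 4.0.16 in R 4.3.3 (filterByExpr, TMM, robust quasi-likelihood fit, genotype as the only term) gave log2 fold changes, with SE as the absolute log2 fold change over the square root of F, and Benjamini-Hochberg adjustment over 13919 genes. Genes with an adjusted p under 0.05 were called. The same fit with the geometric mean count of *Cd3e*, *Cd3d* and *Cd3g* as library size gave values relative to Cd3. The common dispersion was 0.0357. Counting error was small beside the spread between replicates, which gave a chi-square of 16.8 (WT) and 30.0 (CD4/ALK4-KO) per degree of freedom. The script was tested on simulated data. Exon lengths are unions of GENCODE M21 exons.

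The 8 genes and all lists were chosen with earlier results of these data known. By rule, the 8 genes are named in full, of other lists the 3 with the highest mean CPM and the largest rise and fall called, and of the relatives any with a mean of at least 100 counts; other names are genes left over from a small count. Genes of like pattern are the 2 nearest outside the lists. Alternatives were DESeq2 1.42.0 size factors and Wald test, upper quartile scaling, a likelihood ratio test, other filters, other Cd3 denominators, the replicate number as a block, and each library left out in turn. Intervals with the error of the Cd3 genes and a crossed block were added after the data were seen. The values of some genes chosen by the rule, and of 1 further denominator, are not reported here.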

Additional observations from a re-analysis of the deposited data

How the results depend on the processing

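On the TMM scale, 6 of the 8 genes were called higher and 0 lower under every alternative run, including each library left out. All 12 alternatives kept the direction of these 6 genes. Of the other results on this scale, 3 turned in sign without being called: *Klf2* ranged from -0.17 to 0.41 as libraries were left out (-0.17 without WT replicate 2, -0.14 without CD4/ALK4-KO replicate 2), and *Cd44* from -0.0024 (without WT replicate 1) to 0.22. *Igfbp4* was the 1 other naive or memory gene called lower, and 0 were called without WT replicate 1 (range 0 to 1). Relative to Cd3, the number of the 8 genes called higher was 1, but 0 with *Cd3e* alone, 3 with *Cd3d* alone, and 0 to 1 as libraries were left out (0 without WT replicate 1 and without CD4/ALK4-KO replicate 1). The sign turned for *Tcf7* with *Cd3e* alone (-0.55) and as libraries were left out (-0.062 to 0.15; -0.015 without WT replicate 1), and for *Lef1* (-0.21) and *Bach2* (-0.12) with *Cd3e* alone. *Cd3e*, *Cd3d* and *Cd3g* rose unequally, by construction the source of the differences between single Cd3 genes as denominators. For the effects of leaving out a library, the cause was not tested.

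Over all genes tested, 2422 were called higher and 2140 lower on the TMM scale, against 1103 and 754 without WT replicate 1 and 1344 and 1047 without WT replicate 2. Relative to Cd3, 29 genes were called higher, against 4 without WT replicate 1 and 4 with *Cd3e* alone, 49 with summed Cd3 counts, 52 and 55 without CD4/ALK4-KO replicates 2 and 1, and 97 with *Cd3d* alone. Replicate numbers were shared by label only, and deviations of same-numbered libraries had a correlation of -0.24. With the replicate block, 6 of the 8 genes were called higher on the TMM scale, 1 higher and 3 lower relative to Cd3, and 1768 genes higher and 1444 lower over all genes. With crossed numbers as the block, 3118 genes were called higher and 3037 lower, and 6 of the 8 genes higher. *Bach2*, with 45 counts in a WT library, had the least depth of the 8 and the widest SE.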
